A study of Homo sapiens with 4 samples.

Results

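MYC, PVT1 and CASC11 are neighbouring genes on the long arm of chromosome 8, and they were examined as 3 of 62663 genes annotated on the primary chromosomes (1 to 22, X and Y). The genes were chosen by name with earlier results of these data known, and the peaks were selected on position alone, as every peak from 500 kb left of MYC to 500 kb right of PVT1 (chromosome 8, 127235434 to 128687101, GRCh38). This stretch of 1.45 Mb held 7 of 3920 peaks in the control list and 13 of 14322 peaks in the knockdown list. Because membership was set by position, all peak positions, widths and scores below are descriptions without a test.

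The lists came from ChIP-seq of RNA polymerase II (Pol II), in which DNA bound by the polymerase is pulled down with an antibody and sequenced, in SK-OV-3, an established human ovarian cancer line. Control cells expressed a short hairpin RNA against LacZ (shLacZ), a bacterial gene absent from human cells, and knockdown cells expressed one against RRN3 (shRRN3), an initiation factor of RNA polymerase I. The study asked how loss of RRN3 affected Pol II along genes. Each hairpin had 1 immunoprecipitated library, so differences between hairpins have no replicate check, and the input libraries (1 per hairpin) are not analysed here. The lists hold no read counts, so sequencing depth could not be read from them and was not used here.

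MYC encodes a transcription factor that pairs with MAX and drives genes of growth, ribosome production and the cell cycle, and its own transcription responds to enhancers spread over the surrounding gene desert. PVT1 is a long noncoding RNA gene downstream of MYC on the same strand, often gained together with MYC in ovarian and other cancers, and it hosts several microRNA hairpins. CASC11 is a noncoding RNA gene on the opposite strand whose annotated span overlaps the first part of MYC. Pol II peaks mark places where the polymerase gathers, most often at gene starts, but they are not a measure of RNA output.

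MYC spans 127735434 to 127742951 on the plus strand (7.52 kb) and is the only member that codes for protein. CASC11 runs over 127686343 to 127738987 on the minus strand (52.6 kb), so 3554 bp belong to both genes. PVT1 spans 127794526 to 128187101 on the plus strand (392.6 kb) and begins 51.6 kb past the MYC end. It is annotated with 190 transcripts, against 15 for MYC and 5 for CASC11.

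Both lists had a peak at the MYC start, and neither had one at the annotated start of PVT1 or CASC11. In shLacZ the MYC peak lay at 127736066 to 127736560, was 495 bp wide and had a score of 122. In shRRN3 it lay at 127735815 to 127736866, was 1052 bp wide and had a score of 140. The score is the authors' own measure of peak strength and can be ranked within a list only. The shLacZ peak lay wholly inside the shRRN3 peak, and the midpoints were 27 bp apart.

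The MYC peaks were centred near the start of the representative transcript of the gene. The start of the representative transcript MYC-206 at 127736231 was 82 bp from the shLacZ midpoint and 109 bp from the shRRN3 midpoint. The outermost annotated start of MYC was farther away, at 879 bp and 906 bp. Of the 15 MYC transcripts, 4 started inside the shLacZ peak and 5 inside the shRRN3 peak, while 0 of the 5 CASC11 transcripts started in either. A peak counted as a start peak when its midpoint was within 1 kb of the outermost start. By that measure 7.56% of protein-coding genes had a start peak in shLacZ, 23.7% had one in shRRN3, and 6.41% had one in both lists, as MYC did, against 17.3% in shRRN3 alone and 1.15% in shLacZ alone.

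**Figure D1:**
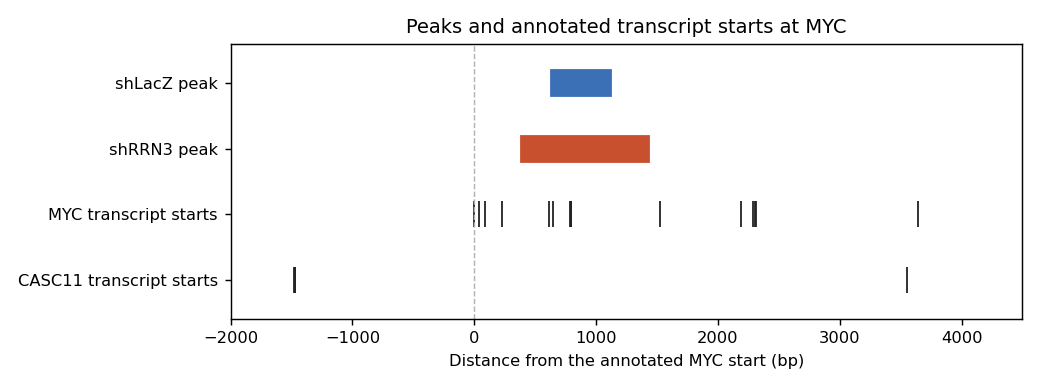
Peaks (coloured bars, by list) and annotated transcript starts of MYC and CASC11 (black ticks) against distance in bp from the outermost MYC start, drawn to scale. The shRRN3 peak of 1052 bp contains the shLacZ peak of 495 bp, and no CASC11 transcript starts inside either.

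MYC ranked high in both lists. Among 1515 protein-coding genes with a start peak in shLacZ, the MYC score was at percentile 86.5 (rank 205), above a median score of 70.6. Among 4753 such genes in shRRN3 it was at percentile 76.7 (rank 1108), where the median score was 90.9. The peak was 2.13 times as wide in shRRN3 as in shLacZ. Over the 2109 pairs in which 1 peak of each list overlapped 1 peak of the other, the median width ratio was 1.51 and the middle 50% ran from 1.16 to 2.09, so 76.4% of pairs had a ratio no larger than that at MYC. Of the 534 shLacZ peaks that scored at least as high as the MYC peak, 94.8% were overlapped by a shRRN3 peak, and of the 2083 shRRN3 peaks that scored at least as high as MYC there, 51.4% were overlapped by a shLacZ peak.

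CASC11 had no peak of its own. The MYC peak was the only peak inside its span, 2674 bp from its outermost start in shLacZ and 2647 bp in shRRN3, on the part shared with MYC. That outermost start belongs to the transcript CASC11-205. The other CASC11 transcripts start left of MYC and run away from it, so the peak lies outside them. The other 49.1 kb of CASC11 carried no peak in either list. Pol II on the opposite strands of the shared part cannot be told apart in these data. A start peak was found at 2.88% of long noncoding RNA genes in shLacZ and at 8.79% in shRRN3, so its absence at CASC11 and PVT1 was the common case. In both lists it was found at 2.51% of these genes, in shRRN3 alone at 6.28% and in shLacZ alone at 0.366%.

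The study was concerned with gene ends. In its Pol II ChIP-seq it examined them by coverage summarised over many genes. Its other evidence included a readthrough reporter, long-read RNA sequencing and mapping of RNA bound by RRN3. Called peaks near an end are a different measure and do not bear on that coverage. None of the 3 genes had a peak midpoint within 0.5 kb of its end in either list. Such a peak was rare everywhere, at 0.619% of protein-coding genes in shLacZ and 1.96% in shRRN3, and at 0.451% and 1.57% of long noncoding RNA genes. Past the MYC end, shLacZ had no peak before PVT1. In shRRN3 a peak of 287 bp and score 55.3 lay between MYC and PVT1, at 127760507 to 127760793, in no annotated gene and 21.6 kb from the nearest annotated transcript start. The nearest shLacZ peak was 23.9 kb away from it.

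PVT1 differed most between the lists, with 0 shLacZ peaks and 8 shRRN3 peaks inside its span. These 8 made up 61.5% of the shRRN3 peaks in the locus (95% interval 31.6% to 86.1%), while PVT1 takes up 27.0% of its length. With flanks of 1 Mb the same 8 peaks made up 38.1% (18.1% to 61.6%), but of a longer stretch, of which PVT1 takes up less than 27.0%. In shLacZ the share was 0 of 7 (upper limit of 41.0%). The intervals are exact Clopper-Pearson intervals over peaks and cover counting error only. The shRRN3 peaks covered 3199 bp, or 0.815% of PVT1.

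The PVT1 peaks formed a group near the start and a group near the end, with nothing between them over 254.0 kb. In the first 60 kb of PVT1, by midpoint, lay 3 peaks. The first (127803362 to 127803674) was 313 bp wide with a score of 50.7, and its midpoint lay in a PVT1 exon 8.99 kb past the start. The second (127810398 to 127810644) was 247 bp wide with a score of 53.5 and lay in an intron. The third (127854070 to 127854840) was the strongest and widest of the 8, with a score of 97.2 and 771 bp. Its midpoint lay in a PVT1 exon, 45 bp from the start of the transcript PVT1-358, and it was the only one of the 8 within 1 kb of a PVT1 transcript start.

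The other 5 peaks lay in the last 80 kb of PVT1, all in introns and at least 7.62 kb from any annotated transcript start. The first (128108869 to 128109309) was 441 bp wide with a score of 58.99, and the next (128127735 to 128128049) was 315 bp wide with a score of 64.2. A pair 97 bp apart followed, at 128167755 to 128168277 (523 bp, score 56.5) and 128168375 to 128168675 (301 bp, score 79.7). The last (128183110 to 128183397) was 288 bp wide with a score of 83.7, and its midpoint was 3.85 kb before the PVT1 end. The 5 microRNA hairpins of PVT1 carried no peak. The nearest shRRN3 peak was 7.33 kb from MIR1204 and 17.6 kb from MIR1208, and between 59.6 kb and 105.8 kb from MIR1205, MIR1206 and MIR1207.

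**Figure D2:**
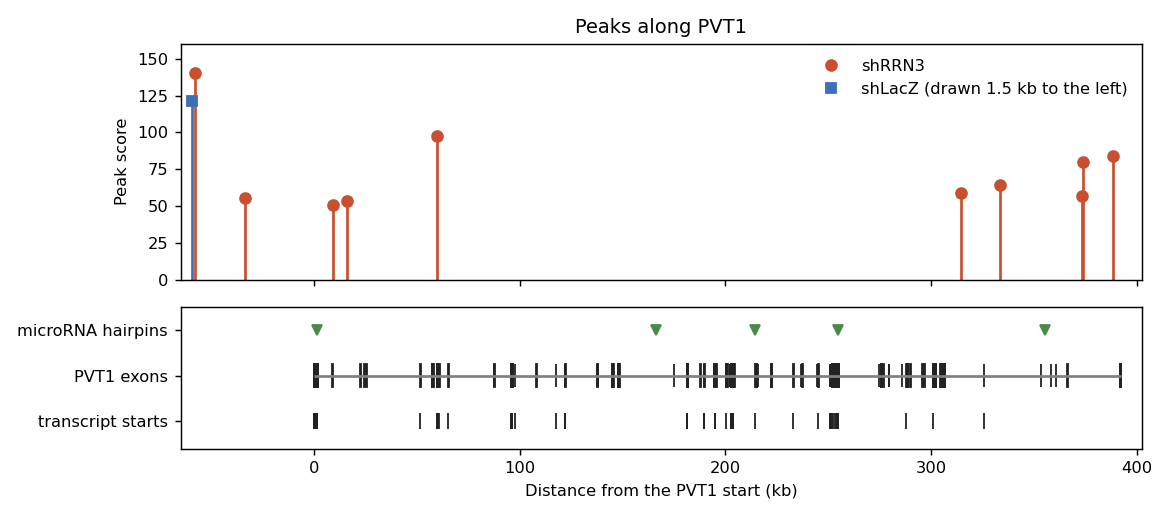
Upper panel, score of each peak from MYC to the PVT1 end against distance in kb from the PVT1 start (red circles, shRRN3; blue square, shLacZ); lower panel, PVT1 microRNA hairpins, exons and transcript starts. By midpoint, the 8 shRRN3 peaks in PVT1 lie in its first 60 kb or its last 80 kb, and the shLacZ list has none.

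Most of the PVT1 peaks scored below the median of their list. The scores of the 8 ran from 50.7 to 97.2 with a median of 61.6, against a median of 74.7 over all shRRN3 peaks. The peaks with scores of 79.7, 83.7 and 97.2 were above that list median. Peaks of that score range seldom had a counterpart, since 91.4% of the 9558 shRRN3 peaks between these scores were not overlapped by a shLacZ peak. Of the 8, none was among the top 3920 shRRN3 peaks by score, the number that shLacZ holds. The cut-offs that follow are the values of PVT1 itself, which was chosen with earlier results known, so the shares are descriptions only. Of the 1170 genes of 300 kb or more, 2.82% held 8 or more shRRN3 peaks. A share of 0.684% held 8 or more with no shLacZ peak. Those 8 genes were PVT1, PDE7B (15 shRRN3 peaks), CALCRL-AS1, FMNL2 and INPP4B (9 each), and IQCJ-SCHIP1, RASAL2 and TOX (8 each), named after their values were seen. Any shLacZ peak at all was found inside 18.1% of such long genes and any shRRN3 peak inside 42.8%. Among the 333 long noncoding RNA genes of that size the shares were 2.40% with 8 or more shRRN3 peaks, 0.601% with 8 or more and no shLacZ peak, 17.7% with any shLacZ peak and 38.1% with any shRRN3 peak.

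Left of CASC11 the order was the opposite, with 6 shLacZ peaks and 3 shRRN3 peaks in 450.9 kb. The covered bases were nearly equal, at 2948 bp and 3182 bp, because the shRRN3 peaks were wider (mean widths of 491.3 bp and 1061 bp). All 9 peaks lay within PCAT1, a long noncoding RNA gene whose annotated start is outside the locus. PCAT1 had a start peak in shRRN3 alone, as did 6.28% of long noncoding RNA genes.

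The strongest peak of the whole locus was in this flank. In shRRN3 it lay at 127293443 to 127295854, was 2412 bp wide and had a score of 236, which ranked 605 of 14322 in its list. It spanned a pair of shLacZ peaks that were 8 bp apart, at 127293915 to 127294469 (555 bp, score 117) and at 127294478 to 127295353 (876 bp, score 124). A shRRN3 peak over 2 or more shLacZ peaks was found in 7.95% of the overlapped shRRN3 peaks. These peaks lay in introns of PCAT1 and of CASC8, a noncoding RNA gene on the opposite strand, and the nearest annotated transcript start, of PCAT1, was 1.84 kb from the shRRN3 midpoint.

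The other 4 shLacZ peaks of the flank had no shRRN3 counterpart. Their scores were 50.3 (127253571 to 127253958, in an exon of ENSG00000287781), 55.6 (127268105 to 127268425), 59.0 (127270458 to 127270792) and 86.5 (127298185 to 127298657, in CASC8). In the range of these scores 42.6% of shLacZ peaks lacked a counterpart. The gap to the nearest shRRN3 peak was 2.33 kb for the strongest and 17.0 kb to 27.5 kb for the others. The other 2 shRRN3 peaks were also weak and unmatched. One (127287818 to 127288366) had a score of 54.3, and the other (127340151 to 127340371) a score of 50.8, in a PCAT1 exon within POU5F1B, the only coding gene of the locus besides MYC. POU5F1B itself had no start peak in either list.

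**Figure D3:**
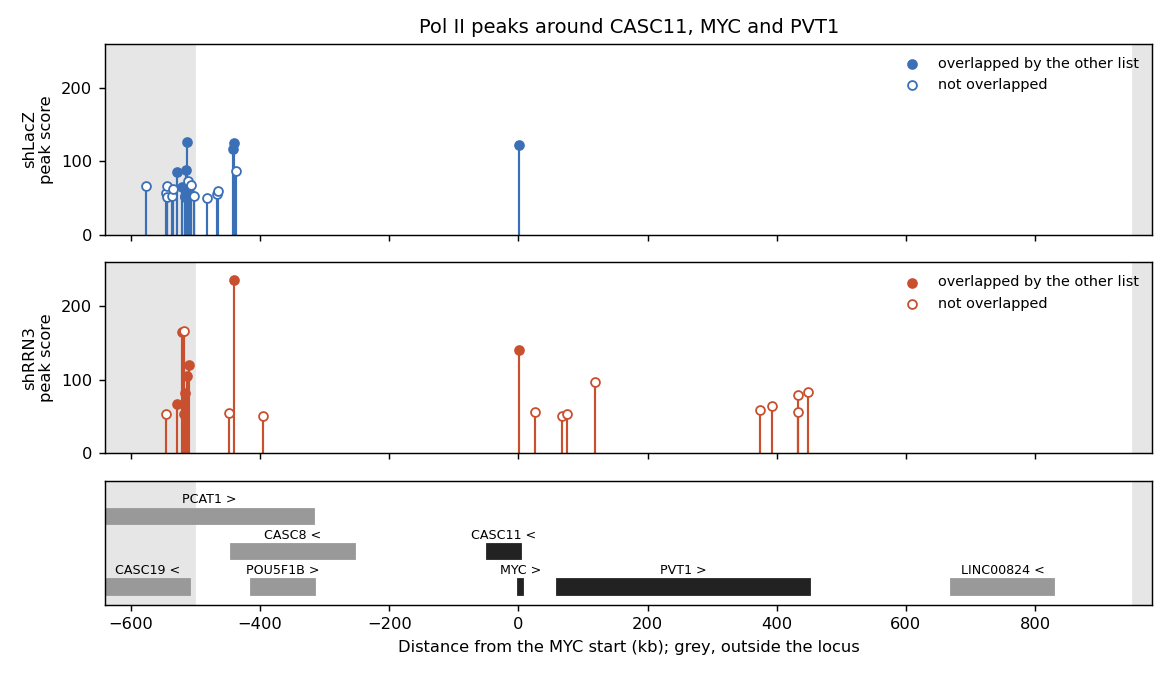
Score of each peak in shLacZ (upper panel) and shRRN3 (middle panel) against distance in kb from the MYC start, with gene spans and their direction below; filled points share bases with the other list, and grey marks sequence outside the locus. Within the locus, the filled points are the MYC peaks and the strongest peaks of the left flank, 1 in shRRN3 over 2 in shLacZ.

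The right flank of 500 kb, which holds LINC00824 and the end of CCDC26, had no peak in either list. In shLacZ the next peak to the right of MYC was 1946 kb away. In shRRN3 the next one past the last PVT1 peak was 1444 kb away. The coding genes nearest to the locus, LRATD2 on the left and GSDMC on the right, had no start peak in either list, and their nearest midpoints were 124.6 kb and 104.4 kb from the start in shLacZ and 2.70 kb and 78.4 kb in shRRN3.

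In all, 3 of the 7 shLacZ peaks were overlapped by at least 1 bp, or 42.9% (9.90% to 81.6%), against 66.2% over the whole list. Of the 13 shRRN3 peaks 2 were overlapped, or 15.4% (1.92% to 45.4%), against 16.9%. Both whole-list shares were inside these intervals. Within the locus, the overlapped peaks were those with the higher scores. In shLacZ they were at percentiles 85.5 to 86.9 of their list and the other 4 at percentiles 1.33 to 72.2. In shRRN3 they were at percentiles 85.5 and 95.8, and the other 11 at percentiles 2.60 to 69.3. Just left of the locus edge this split did not hold. An overlapped shLacZ peak there was at percentile 4.62 and an unmatched shRRN3 peak at percentile 90.3.

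**Figure D4:**
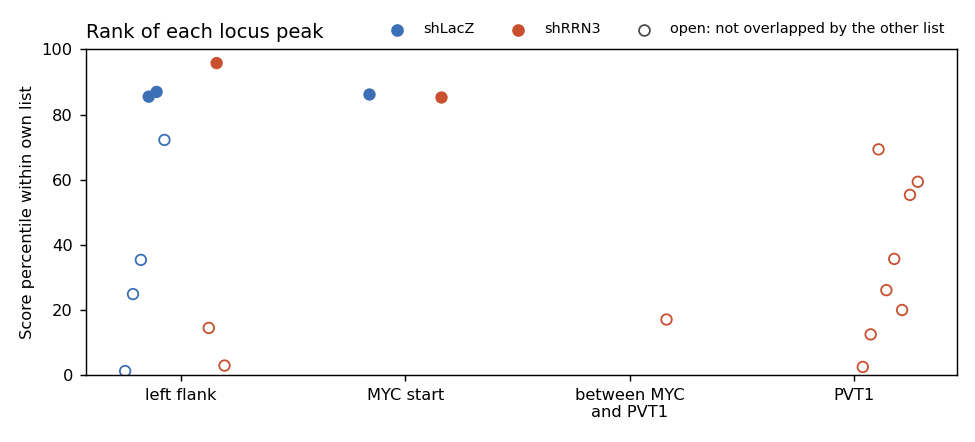
Percentile of each locus peak's score within its own list, by part of the locus (blue, shLacZ; red, shRRN3; open points are not overlapped by the other list). The overlapped peaks lie at percentile 85.5 or above, and every unmatched peak at 72.2 or below.

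With the flanks of 500 kb, both lists had more peaks per Mb in the locus than in the rest of the primary chromosomes. shLacZ had 4.82 peaks per Mb in the locus and 1.27 elsewhere, a ratio of 3.80 (1.53 to 7.84 from the exact Poisson interval). shRRN3 had 8.96 and 4.64, a ratio of 1.93 (1.03 to 3.30). The intervals in this paragraph treat peaks as independent, but peaks in the locus lay in clusters, so they may be too narrow. With flanks of 250 kb the shLacZ ratio was 0.828 (0.0210 to 4.61), below 1 but with an interval that includes 1. It was 7.43 (4.71 to 11.1) with flanks of 1 Mb and 4.41 (1.203 to 11.3) with peaks scoring at or above the shLacZ median. For shRRN3 the ratio was 2.27 (1.09 to 4.17) with flanks of 250 kb and 1.85 (1.14 to 2.83) with flanks of 1 Mb. The shRRN3 ratio was 1.22 (0.395 to 2.84) with peaks scoring at or above the shLacZ median and 1.09 (0.131 to 3.92) with its top 3920 peaks, and both intervals include 1. On chromosome 8 outside the locus the densities were 1.04 and 3.87 peaks per Mb. Among 2117 adjoining windows of the same length, 5.81% held at least as many shLacZ peaks and 17.9% at least as many shRRN3 peaks. Peak numbers in shRRN3 were 1.86 times those in shLacZ (exact conditional interval 0.689 to 5.50), against 3.65 times over the primary chromosomes, a value inside that interval. With flanks of 1 Mb the direction turned, with 23 shLacZ and 21 shRRN3 peaks. The ratio was then 0.913 (0.481 to 1.73), and 3.65 was outside that interval. Of the 123 windows with at least as many shLacZ peaks, 25.2% had a ratio no higher than the locus. Covered bases were 3443 bp and 7720 bp, which was 2.24 times as much in shRRN3, against 4.80 times over all.

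**Figure D5:**
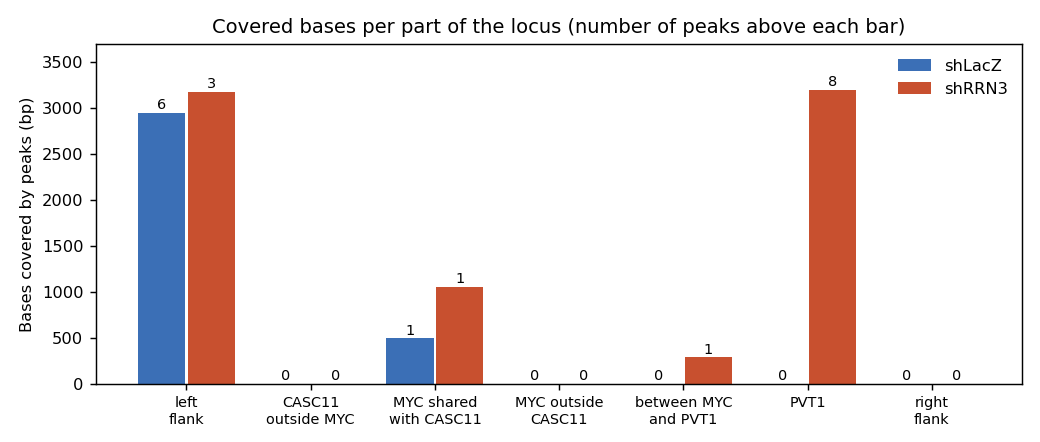
Bases covered by peaks (bp) in each part of the locus, with the number of peaks above each bar (blue, shLacZ; red, shRRN3). The left flank is near equal at 2948 bp and 3182 bp, while PVT1 has 0 bp in shLacZ and 3199 bp in shRRN3.

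Base composition set the MYC peaks apart from the others. The share of G and C in the 200 bp around the midpoint was 67.0% in shLacZ and 67.5% in shRRN3 at MYC, and from 30.5% to 57.0% at the other 18 peaks, with medians of 48.5% and 48.0% over all peaks. The ratio of observed to expected CpG dinucleotides, which is high in CpG islands, was 0.824 and 0.737 at the MYC peaks. It was at most 0.431 at the others.

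The same rule was applied to the surroundings of VMP1 and ERBB2, genes that lie in peak-rich stretches of chromosome 17. Within 500 kb of VMP1 lay 19 shLacZ and 43 shRRN3 peaks, a ratio of 2.26 (1.29 to 4.11), and within 500 kb of ERBB2 lay 10 and 24, a ratio of 2.40 (1.11 to 5.62). The ratio of 1.86 around MYC was within both intervals. Around VMP1 18 of 19 shLacZ peaks were overlapped, or 94.7% (74.0% to 99.9%). Around ERBB2 7 of 10 were, or 70.0% (34.8% to 93.3%), and around MYC 3 of 7, or 42.9% (9.90% to 81.6%). The intervals of the 3 loci overlapped, but this does not show that the shares are alike, and their difference was not tested. The top shRRN3 score was 3100 near VMP1 and 446 near ERBB2, against 236 near MYC. The VMP1 and ERBB2 stretches touch 15 and 30 protein-coding genes, and that of MYC touches 2.

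A list of MYC network genes that includes MYC itself had start peaks at shares close to those of all protein-coding genes. In a list of 14 genes of the MYC network (MYC, its relatives, MAX, and the MXD, MNT, MGA and MLX factors that share or compete for partners), 1 had a start peak in shLacZ and 3 in shRRN3. That was 7.14% and 21.4%, against 7.56% and 23.7% of all protein-coding genes. MYC, a member chosen beforehand, was the only one in shLacZ and 1 of the 3 in shRRN3, so none of its partners had a start peak in shLacZ. With any annotated transcript start the shRRN3 count was 5, and the share of all protein-coding genes by that rule was not computed. In shRRN3, MLX, a partner of the glucose-sensing relatives of MYC, had a peak of score 141 and 1057 bp, and ZBTB17, whose protein MIZ1 joins MYC at repressed genes, had one of score 68.5 and 423 bp. MAX had none, and its nearest midpoints were 601.0 kb and 78.0 kb from the start in shLacZ and shRRN3.

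Of 20 well-known MYC target genes, 6 had a start peak in shLacZ and 8 in shRRN3, or 30% and 40%, against 7.56% and 23.7% of all protein-coding genes. The 6 were among the 8, against 6.41% of all protein-coding genes with a start peak in both lists, and the other 2 had one in shRRN3 alone, against 17.3%. The 6 were CAD (pyrimidine synthesis), NPM1 (nucleolus), EIF4A1 (translation), TFRC (iron uptake), APEX1 (DNA repair) and PTMA (prothymosin). Their scores ran from 59.1 to 133 in shLacZ, the highest at EIF4A1. In shRRN3 they ran from 70.5 at APEX1 to 359 at EIF4A1. The peaks in shRRN3 alone were at ODC1, the first enzyme of polyamine synthesis (score 94.7), and HSPD1, a mitochondrial chaperone (score 95.2). In neither list had NCL, LDHA, CDK4, CCND2, FBL, EIF4E, SHMT2, GNL3, DKC1, TERT, BCAT1 and CCNB1 a start peak at the outermost start. That absence depends on the start used. With any annotated transcript start, 7 of the 20 genes had a start peak in shLacZ and 11 in shRRN3. The share of all protein-coding genes by that rule was not computed. The shares of 7.56% and 23.7% are for the outermost start and are no background for these counts. At GNL3 both lists had a peak inside the gene, with midpoints 4543 bp (shLacZ) and 4846 bp (shRRN3) from the outermost start.

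Facts of the whole lists that touch these results are few. At RRN3 itself, with 2 kb added on each side, neither list held a peak, and the knockdown could not be checked from these files. Of markers of the line, PAX8 had a start peak in both lists, the epithelial keratins KRT8 and KRT18 had one in shRRN3 alone, and ERBB2 had no peak. The leukocyte genes PTPRC and CD3E had none.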

How the data were processed

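Pol II ChIP-seq was done in SK-OV-3 cells with 1 library per hairpin, sequenced per the methods on a BGISEQ-500 instrument. The authors deposited 1 peak list per library, with coordinates and a score for each peak, and MACS appears in the peak names. The scale of the deposited score is not stated. It may be a multiple of −log10 of a p-value, to judge from its lowest values of 50.03 and 50 and its ceiling of 3100. The submitters' processing notes name hg38. The aligner, threshold, duplicate handling and use of the input are not given in the sources used here. Depth is not in the peak lists and was not used here, and intervals are 95% intervals over peaks that treat peaks as independent.

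Starts were read as BED coordinates and given 1-based. Genes came from GENCODE release 44 and base composition from the GRCh38 sequence. Overlap needed 1 bp. Gene starts and ends were the outermost annotated bounds. The members, the gene lists, and the rule for naming genes and peaks (the members, other genes of the locus that hold a peak, network genes with a start peak, target genes that differed or had none, and each list's highest and widest peaks) were chosen with earlier results of these data known. No test between hairpins was made, since each had 1 library. The code was tested on planted peaks and checked against bedtools 2.31.1. Calculations used scipy 1.17.1, pandas 2.3.3 and numpy 2.4.6 in Python 3.11.15, and plots matplotlib 3.10.9. Alternatives were a stricter score, a reduced shRRN3 list, other flanks, overlap rules, peak widths and start definitions.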

Additional observations from a re-analysis of the deposited data

How the results depend on the processing

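The 15 results had 76 values under other settings. Of these, 60 fell inside the interval of the reported value (for counts and covered bases, within 1.5 times of it) and 16 did not. With shRRN3 reduced to its highest-scoring peaks, only its MYC peak and the wide peak left of CASC11 were kept. Peak numbers then were 0.286 times and covered bases 1.01 times those of shLacZ, 100% of the shRRN3 peaks were overlapped, 0% lay in PVT1, and 4 MYC target genes had a start peak. With a flank of 250 kb, which leaves out the left cluster, the lists held 1 and 10 peaks, a ratio of 10, covered bases had a ratio of 9.17, the shLacZ density was 0.828 times that elsewhere, and 100% of shLacZ peaks were overlapped. With a flank of 1 Mb the order of the lists turned (23 and 21 peaks, a ratio of 0.913) and the PVT1 share of shRRN3 peaks was 38.1%, both inside the wide intervals of the reported values. With 50% of both peaks shared, overlap was 0% in both lists. With a start window of 0.5 kb, 0 members had a start peak in either list and 0 network genes in shLacZ. With any annotated transcript start, 2 members (MYC and PVT1) and 5 network genes had one in shRRN3. Shares of all genes with a start peak were not computed under these other settings. No paired analysis was possible because each hairpin had 1 library.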

Other observations

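A dense strip of shLacZ peaks lay at the left edge of the locus and continued past it. From 127159121 to 127298657 (139.5 kb, between 576.3 kb and 436.8 kb left of the MYC start) shLacZ had 22 peaks and shRRN3 had 10, a ratio of 0.455 (exact conditional interval 0.192 to 1.00), while shRRN3 had 3.65 times as many peaks over the primary chromosomes. Of these, 16 and 8 lay left of the locus edge. The strip falls within PCAT1, and 14 shLacZ and 8 shRRN3 peaks also lay in CASC19, noncoding genes of the MYC gene desert. The shRRN3 peaks were fewer but wider, with median widths of 945.5 bp and 328 bp, and they covered 1.31 times as many bases. The strongest reached a score of 126 in shLacZ and 236 in shRRN3. Overlap was found for 9 of the 22 shLacZ peaks and 7 of the 10 shRRN3 peaks.

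The strip was chosen after its values were seen, and its edges were set by shLacZ peaks less than 50 kb apart. More shLacZ than shRRN3 peaks were found in 6.24% of the 6461 windows of that length with any peak. With edges set by shRRN3 peaks less than 50 kb apart, a gap of 61.8 kb split the strip. The run right of the gap (127287818 to 127340371) held 3 peaks of each list, and the run left of it (127189825 to 127226067) held 12 shLacZ and 8 shRRN3 peaks. From the start of the left run to the end of the right run lay 20 shLacZ and 11 shRRN3 peaks.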
